A study of Saccharomyces cerevisiae with 8 samples.

Results

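The genes described here encode the protein subunits of the mitochondrial ribosome of Saccharomyces cerevisiae. They were taken by symbol, as the genes named MRPL, MRPS or RSM with a number and 14 further genes with the names MRP1, MRP2, MRP4, MRP7, MRP10, MRP13, MRP17, MRP20, MRP21, MRP49, MRP51, IMG1, IMG2 and RML2. The rule found 68 genes among the 5449 S. cerevisiae genes with a probe set on the array, 40 of the large subunit and 28 of the small subunit. Each of the 68 is read by 1 probe set, and none of these probe sets is of a type that can also hybridise with related transcripts. RNA was hybridised to Affymetrix Yeast Genome 2.0 arrays, with 2 arrays for each of 4 groups. The strains were NBRC 0224, labelled as sensitive to acetic acid (AcOH), and NFRI 3145, labelled as tolerant. Each strain was measured with 0% AcOH and with 0.6% AcOH for 30 min, and all samples carry a temperature of 30 °C in the labels. No genotype beyond the strain name is given, so each strain stands for 1 isolate and a strain difference cannot be generalised to tolerant or sensitive yeasts.

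The labels do not say whether the 2 arrays of a group came from separate cultures, so the p-values below measure only the spread between these arrays, and the number of arrays limits their precision. They give a time only for the samples with acid, so acid and any difference in time or handling cannot be told apart. The probes follow the reference strain and were not compared with the sequences of the 2 strains, so a strain difference in RNA and a difference in how well the RNA binds the probes cannot be told apart. In RNA of a whole culture, less of a transcript in every cell and its loss from some of the cells cannot be told apart either.

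The mitochondrial ribosome translates the few proteins encoded by mitochondrial DNA, most of which are subunits of the respiratory chain and ATP synthase. Its ribosomal RNA is made in the mitochondrion, while nearly all of its proteins are encoded in the nucleus, translated in the cytosol and imported. The small subunit decodes the message and the large subunit forms the peptide bond. In S. cerevisiae the RNA-binding protein Puf3 binds the mRNAs of many of these proteins.

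The mitoribosomal genes lay lower on this array than S. cerevisiae genes in general. Background was taken on each array as the 95th percentile of 1746 probe sets of another yeast, Schizosaccharomyces pombe, which gave 31.5 to 43.9 intensity units. Between 23 and 29 of the 68 genes exceeded it on an array (33.8% to 42.6%), against 50.2% to 66.6% of all S. cerevisiae genes. Of the 68 genes, 27 exceeded background on no array, 5 on 1 array, and 19 on all 8 arrays (27.9%, against 42.8% of all genes). A gene was tested when it exceeded background on at least 2 arrays, which held for 36 of the 68 mitoribosomal genes (52.9%) and for 3879 of all genes (71.2%). The 36 were 24 large-subunit and 12 small-subunit genes. They are only a part of the 68, and 32 genes, 16 of each subunit, have no test here.

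The genes without a test were MRPL9, MRPL11, MRPL15, MRPL17, MRPL20, MRPL22, MRPL24, MRPL25, MRPL27, MRPL31, MRPL35, MRPL40, MRPL44, MRPL50, MRPL51 and IMG2 of the large subunit. Of the small subunit they were MRPS5, MRPS8, MRPS16, MRPS17, MRPS28, RSM10, RSM18, RSM22, RSM27, RSM28, MRP2, MRP10, MRP13, MRP17, MRP21 and MRP51. MRPL35, MRPL50, MRP2, MRP10 and MRP17 exceeded background on 1 array each. A signal below background is a bound and does not show that a transcript was absent. Signals of different probe sets depend on the probes as well as on the transcript, so their order is not an order of transcript levels.

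The signals spanned a wide range. In the small subunit the brightest probe sets were those of MRPS12, the counterpart of bacterial S12 at the decoding site (geometric mean over 8 arrays 12378 intensity units, range 7791 to 17053), and of RSM7, the counterpart of bacterial S7 (2463, range 1457 to 5732). The dimmest were those of MRP13 (1.86) and MRPS28 (2.68), both below background on every array. In the large subunit the brightest were those of IMG1, the counterpart of bacterial L19 (2692), and of MRPL3, a protein with a fold related to ribonuclease III (956). The dimmest were those of MRPL40 (3.10) and MRPL15 (6.05). The signals of MRPS12 lay near the top of the array's scale, where a difference can be compressed.

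**Figure D1:**
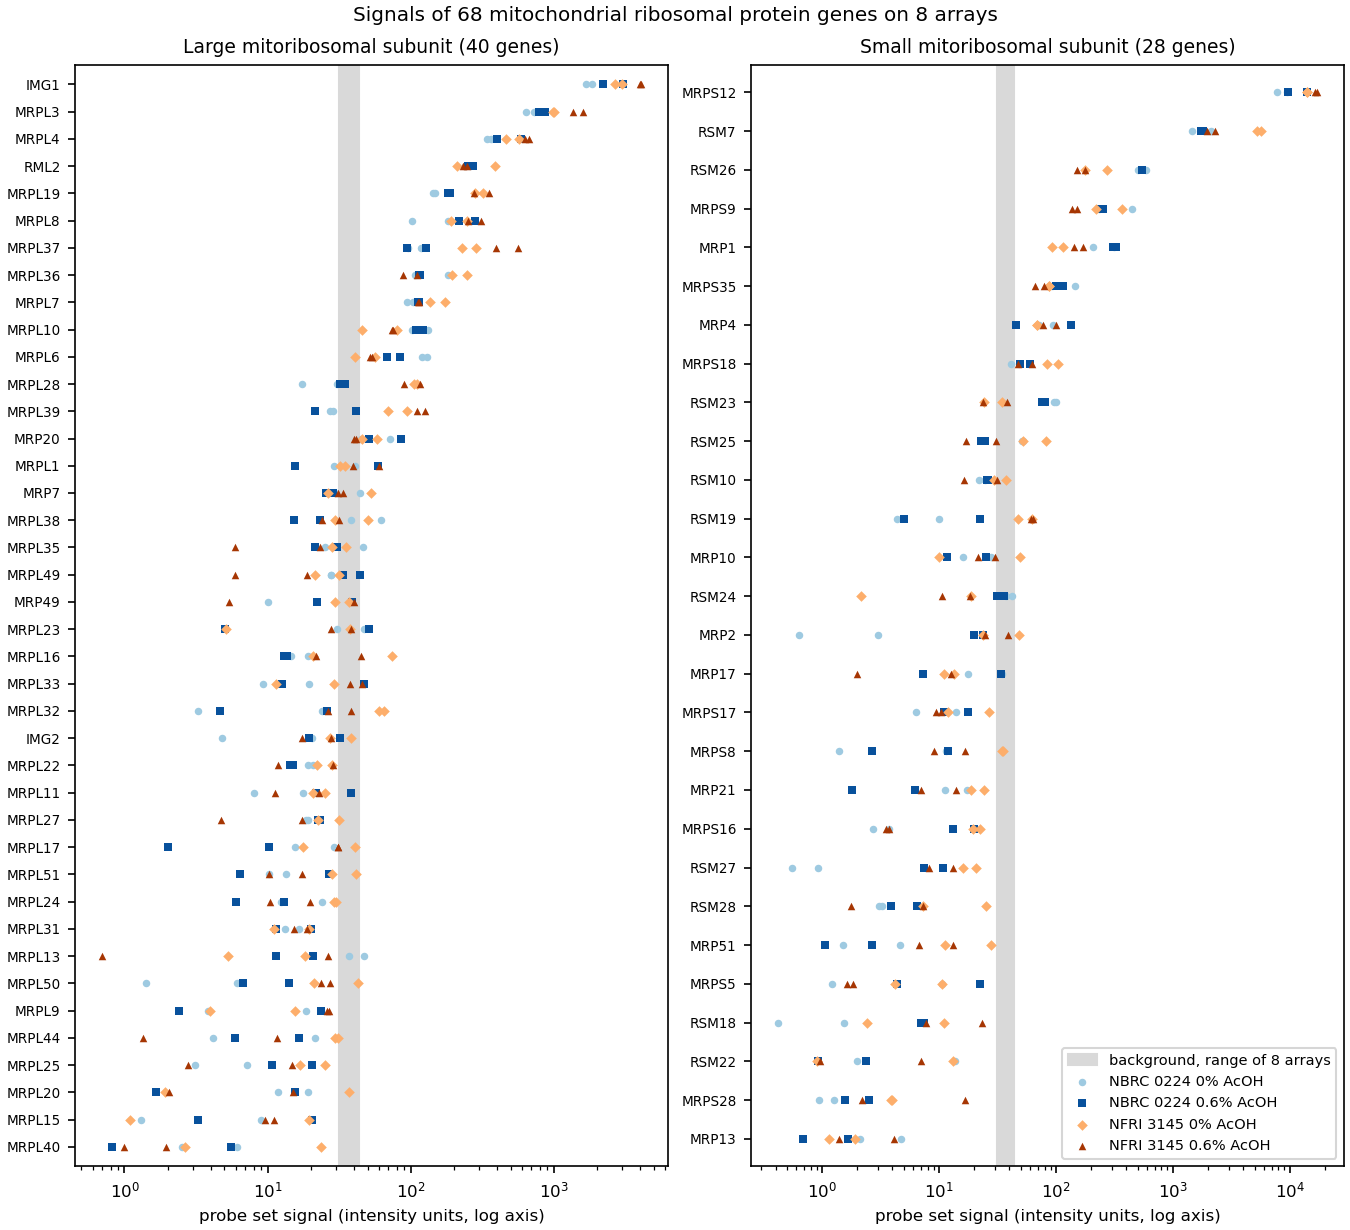
Signals of the 68 mitoribosomal genes on the 8 arrays. The x axis is the probe set signal in intensity units on a log axis, genes are ordered by their mean within each subunit, each marker is 1 array, and the grey band spans the background of the 8 arrays, 31.5 to 43.9. The markers of 19 genes lie above the background of their array on all 8 arrays, while 27 genes exceed it on none.

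The gene table of the R64 assembly gives family names to these proteins that separate those with a bacterial counterpart from those found only in mitochondria. By these names 42 of the 68 genes had a bacterial counterpart, 25 were specific to mitochondrial ribosomes, and RSM22 had no family name. Of the genes with a bacterial counterpart 25 were tested (59.5%), and of the mitochondria-specific genes 11 (44.0%). On all 8 arrays 14 and 5 of them exceeded background.

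The study compared the 2 strains to look for genes tied to tolerance, and the first comparison here is that of the strains without acid. NFRI 3145 differed from NBRC 0224 in both directions. Of the 36 tested genes 11 were higher in NFRI 3145 and 6 were lower at an adjusted p under 0.05. The 17 called genes are 47.2% of the 36, close to the background of 50.2% of all tested genes (21.1% higher and 29.1% lower). The split between the directions was 7 higher and 2 lower in the large subunit and 4 higher and 4 lower in the small subunit. The median log2 difference of the 36 genes was 0.39, against -0.06 for all tested genes. Under quantile normalization 15 of the 36 were higher and 5 lower, and under median centring 15 and 4, while the medians of all genes moved to 0.05 and 0.35. Among all tested genes the split between higher and lower was 819 to 1130, and 1049 to 1008 and 1347 to 840 under these scalings. The median of the 36 stood 0.45 above that of all genes as deposited and 0.49 above it under quantile normalization. Median centring shifts all genes of an array alike, so it cannot change this gap. With signals floored at background the gap was 0.22.

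The filter bears on these counts. MRPL16, MRPL32, MRPL39 and RSM19 exceeded background only on NFRI 3145 arrays, and MRPL13, MRPL23, MRPL49, RSM23 and RSM24 only on NBRC 0224 arrays, so their place among the 36 already depended on a difference between the strains. MRPL28 exceeded it on 4 NFRI 3145 arrays and 1 NBRC 0224 array, so it too was tested through the strain in which it was high. Fits with an array left out kept the 36 genes chosen on all 8 arrays, so they do not remove this dependence. Another group depended on the acid level, since MRP7, MRPL13, MRPL32, MRPL38, RSM24 and RSM25 exceeded background only on arrays without acid and MRPL33 and MRPL49 only on arrays with acid. Among the 19 genes above background on all 8 arrays, 7 were higher and 4 lower without acid (57.9%, against 58.0% of the 2331 genes of that kind). With 0.6% AcOH 5 were higher and 2 lower (36.8%, against 53.6%). The median log2 difference of the 19 was 0.55 without acid and 0.0085 with acid, against -0.0036 and -0.085 for those 2331 genes. Without any filter MRP2, MRPL50, MRPS16 and RSM27 were added to the higher genes without acid, and MRPL17 to those with 0.6% AcOH. All 5 were below background on at least 7 arrays, and only MRP2 and MRPL50 exceeded it, on 1 NFRI 3145 array without acid each. These calls rest almost wholly on signals below background and are given as names.

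In the small subunit the 4 genes that were higher in NFRI 3145 without acid all have a bacterial counterpart, and the 4 that were lower are all mitochondria-specific. Of these, RSM19, RSM23 and RSM24 were tested only through the strain in which they were high. The large subunit did not split this way. Its 2 lower genes, MRPL6 and MRPL10, have a bacterial counterpart, and of its 7 higher genes MRPL28, MRPL37 and MRPL3 are mitochondria-specific. The split was not tested. RSM7 (YJR113C, chromosome X) read 1457 and 2131 intensity units in NBRC 0224 and 5291 and 5732 in NFRI 3145. Both NFRI 3145 arrays lay well above both NBRC 0224 arrays, a 3.13-fold difference (log2 1.64 ± 0.20 SE, limma adjusted p = 4.9e-05, n = 2 and 2). MRPS12 (YNR036C, chromosome XIV) read 7791 and 9408 in NBRC 0224 and 14112 and 14146 in NFRI 3145, again without overlap (log2 0.72 ± 0.17, adjusted p = 0.0037). MRPS18 (YNL306W, chromosome XIV), the counterpart of bacterial S11, read 48.1 and 41.0 in NBRC 0224 and 103 and 83.9 in NFRI 3145 (log2 1.07 ± 0.34, adjusted p = 0.022). RSM19 (YNR037C), the counterpart of bacterial S19, is encoded next to MRPS12 on chromosome XIV, the only pair of neighbours among the 68 genes. Its signals were below background on both NBRC 0224 arrays and read 47.2 and 62.0 in NFRI 3145, which makes the signal at least 1.56-fold higher there (adjusted p = 0.0087).

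The lower small-subunit genes included RSM26 and MRP1, a related pair whose proteins share the fold of superoxide dismutases. RSM26 (YJR101W, chromosome X) read 506 and 588 in NBRC 0224 and 276 and 178 in NFRI 3145, a log2 difference of -1.30 ± 0.26 (adjusted p = 0.0015). MRP1 (YDR347W, chromosome IV) read 210 and 316 in NBRC 0224 and 115 and 92.4 in NFRI 3145, a log2 difference of -1.32 ± 0.27 (adjusted p = 0.0018). In both genes each NBRC 0224 array stood above each NFRI 3145 array. RSM23 (YGL129C, chromosome VII), the counterpart of the human GTP-binding protein DAP3, read 97.0 and 99.7 in NBRC 0224 and fell below background on both NFRI 3145 arrays, at least 2.42-fold lower (adjusted p = 0.0026). RSM24 read 42.3 and 37.3 in NBRC 0224, just above background, and lay below background in NFRI 3145 (adjusted p = 0.044), which leaves no fold to give. Floored at background its log2 difference turned to 0.034. MRPL13, a mitochondria-specific protein of the large subunit, also lay lower at or below background (log2 -2.09 ± 1.55 without acid and -1.85 ± 1.55 with acid), without a call (adjusted p = 0.28 and 0.36).

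In the large subunit the widest difference without acid among genes above background on all 8 arrays was that of MRPL6 (YHR147C, chromosome VIII), the counterpart of bacterial L6. It read 120 and 131 in NBRC 0224 and 40.9 and 56.4 in NFRI 3145, a log2 difference of -1.38 ± 0.32 (adjusted p = 0.0035). MRPL10 (YNL284C), the counterpart of bacterial L15, was the other lower gene, with 102 and 133 against 45.5 and 79.7 (log2 -0.95 ± 0.33, adjusted p = 0.032). Neither gene's groups overlapped. The call of MRPL10 ended under quantile normalization (adjusted p = 0.072), median centring (0.18) and without the filter (0.066).

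The higher large-subunit genes were MRPL28, MRPL37, MRPL19, MRPL39, IMG1, MRPL3 and MRPL32. MRPL37 (YBR268W, chromosome II), a mitochondria-specific protein, read 118 and 96.6 in NBRC 0224 and 229 and 285 in NFRI 3145 (log2 1.26 ± 0.28, adjusted p = 0.0029). MRPL19 (YNL185C, chromosome XIV), the counterpart of bacterial L11 at the factor-binding stalk base, read 143 and 147 against 280 and 319 (log2 1.04 ± 0.24, adjusted p = 0.0033). Both genes had NFRI 3145 arrays far above the range of the NBRC 0224 arrays. MRPL28 (YDR462W, chromosome IV), also mitochondria-specific, was below background on both NBRC 0224 arrays and read 106 and 111 in NFRI 3145, at least 3.13-fold higher (adjusted p = 0.00054). MRPL39 (YML009C, chromosome XIII), the counterpart of bacterial L33, was likewise below background in NBRC 0224 and read 69.3 and 94.8 in NFRI 3145, at least 2.34-fold higher (adjusted p = 0.0079).

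The remaining higher genes were IMG1, MRPL3 and MRPL32. IMG1 (YCR046C, chromosome III) read 1843 and 1689 in NBRC 0224 and 2690 and 3008 in NFRI 3145 (log2 0.69 ± 0.19, adjusted p = 0.0099). MRPL3 (YMR024W, chromosome XIII) read 641 and 726 against 993 and 1006 (log2 0.55 ± 0.20, adjusted p = 0.037). MRPL32, the counterpart of bacterial L32, was below background in NBRC 0224 and read 65.4 and 60.4 in NFRI 3145, at least 1.82-fold higher (adjusted p = 0.040). The arrays of the 2 strains did not overlap in any of these 3 genes. Just short of the threshold were MRPL7, the counterpart of bacterial L5, at log2 0.64 ± 0.26 (adjusted p = 0.057), and MRPL4, the counterpart of bacterial L29, at 0.55 ± 0.24 (adjusted p = 0.081). MRPL36 (0.66 ± 0.31, adjusted p = 0.093) and MRPL8 (0.66 ± 0.31, adjusted p = 0.094) followed. All 4 were called higher under quantile normalization and under median centring (adjusted p between 0.0045 and 0.012).

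**Figure D2:**
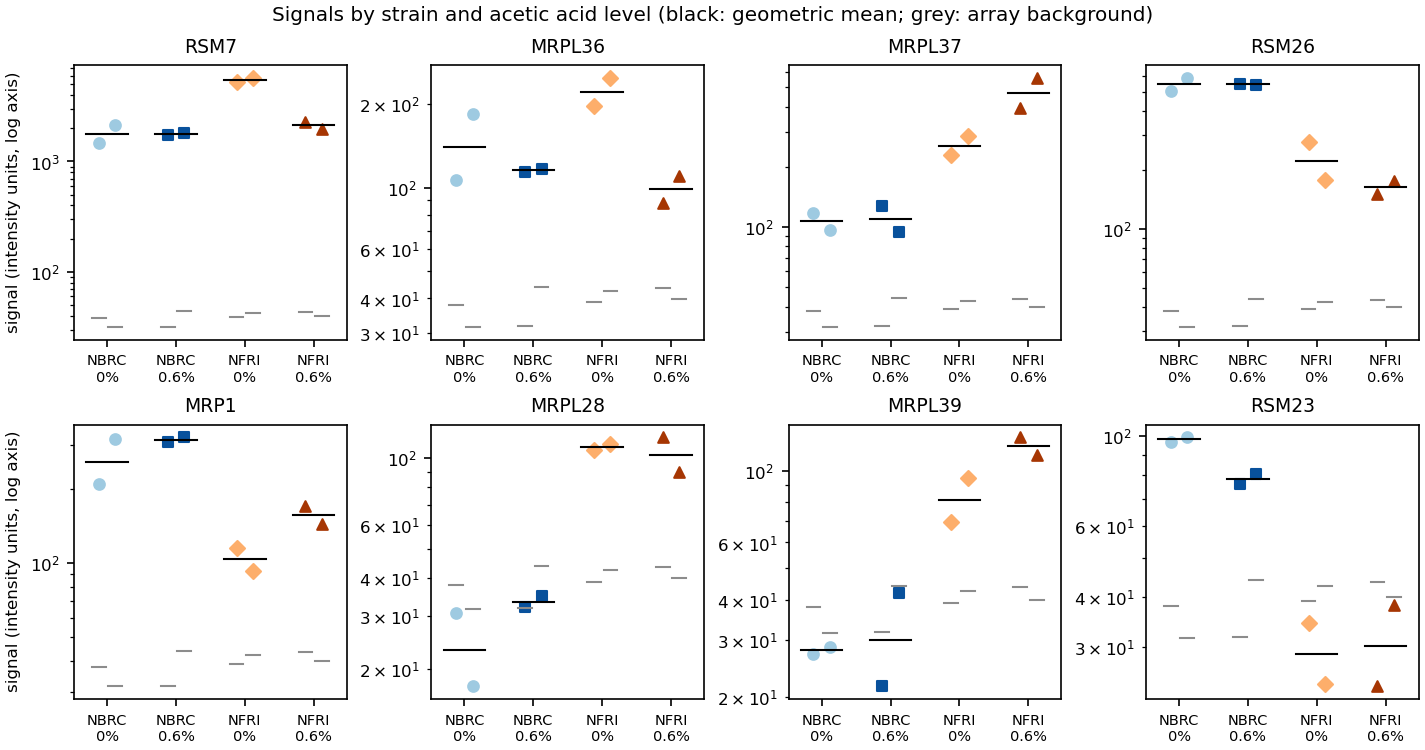
Signals of 8 mitoribosomal genes by strain and acid level. The y axes are probe set signals in intensity units on log axes, coloured markers are single arrays, black lines are geometric means of 2 arrays, and short grey lines mark each array's background. RSM7 is highest in NFRI 3145 without acid, at 5291 and 5732, and lies at 2299 and 1980 with acid, while RSM26 and MRP1 are lower in NFRI 3145 at both acid levels.

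Of these calls 4 of the 11 higher (RSM7, MRPL28, MRPL37 and MRPL19) and 4 of the 6 lower (RSM26, MRP1, RSM23 and MRPL6) stayed called whichever of the 8 arrays was left out. The number of higher genes ranged from 6, without NFRI 3145 0% AcOH replicate 2, to 13, and was 7 without NBRC 0224 0% AcOH replicate 1, and the number of lower genes from 4 to 6. MRPS12 lost its call without NBRC 0224 0% AcOH replicate 1 (adjusted p = 0.057) and MRPL39 without NFRI 3145 0% AcOH replicate 2 (0.067). IMG1 and RSM19 lost theirs without replicate 2 of either group at 0% AcOH (up to 0.075 and 0.068). MRPS18 and MRPL10 lost theirs without replicate 1 of either group or without replicate 2 of NBRC 0224 at 0% AcOH (up to 0.12 and 0.23). The calls of MRPL3, MRPL32 and RSM24 held in 2, 3 and 3 of the 8 fits with an array left out (adjusted p up to 0.17, 0.30 and 0.27). MRPL3 kept its call only without an NBRC 0224 0.6% AcOH array, MRPL32 lost it without NBRC 0224 0% AcOH replicate 1 or any NFRI 3145 array, and RSM24 lost it without any NBRC 0224 array or NFRI 3145 0% AcOH replicate 1. The calls of MRPL32 (adjusted p = 0.051) and MRPS18 (0.052) also ended without the filter, and those of MRPL32 (0.080) and RSM24 (0.060) without the variance trend.

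With 0.6% AcOH the strains differed in fewer mitoribosomal genes. There were 8 genes higher in NFRI 3145 and 4 lower, which is 33.3% of the 36, against 46.1% of all tested genes (17.4% higher and 28.7% lower). The split was 6 higher and 1 lower in the large subunit and 2 higher and 3 lower in the small subunit. The median log2 difference was 0.18, against -0.23 for all tested genes. Under quantile normalization the counts were 9 and 1, and under median centring 10 and 1, with medians of all genes at -0.02 and 0.26. Among all tested genes the split was 676 to 1113, and 847 to 842 and 1159 to 690 under these scalings. The median of the 36 stood 0.41 above that of all genes as deposited and 0.47 above it under quantile normalization. Median centring cannot change this gap either. With signals floored at background the median of the 36 was 0.16 and the gap 0.19. The median of the 19 genes above background on all 8 arrays was 0.0085, which is 0.09 above that of all genes of that kind.

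MRPL37 had the strongest support among the higher genes. It read 127 and 94.8 in NBRC 0224 and 395 and 560 in NFRI 3145, a 4.28-fold difference with every NFRI 3145 array above every NBRC 0224 array (log2 2.10 ± 0.28, adjusted p = 9.9e-05). MRPL39 was below background in NBRC 0224 and read 127 and 112 in NFRI 3145, at least 3.19-fold higher (adjusted p = 0.0020). MRPL28 read 32.0 on the NBRC 0224 array where it exceeded background and 117 and 89.5 in NFRI 3145, at least 2.73-fold higher (adjusted p = 0.0050). The other higher genes were MRPL3 (log2 0.82 ± 0.20, adjusted p = 0.0055), MRPL19 (0.76 ± 0.24, adjusted p = 0.021), IMG1 (0.63 ± 0.19, adjusted p = 0.018), MRPS12 (0.53 ± 0.17, adjusted p = 0.022) and RSM19, at least 1.67-fold higher (adjusted p = 0.023). The arrays of the 2 strains did not overlap in these 8 genes, which with 2 arrays a group adds little to the call.

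RSM26 was the lower gene with the strongest support. It read 549 and 542 in NBRC 0224 and 150 and 176 in NFRI 3145, a 3.36-fold difference (log2 -1.75 ± 0.26, adjusted p = 0.00022). MRP1 read 308 and 324 against 170 and 144 (log2 -1.02 ± 0.27, adjusted p = 0.0098), and RSM23 read 76.2 and 80.8 against signals below background, at least 1.88-fold lower (adjusted p = 0.013). The arrays of the strains did not overlap in these 3 genes, but the calls of MRP1 and RSM23 ended under quantile normalization (adjusted p = 0.17 and 0.061) and median centring (0.14 and 0.079). MRPL49, the counterpart of bacterial L21, was called lower (adjusted p = 0.046) from signals at or below background on all 8 arrays but 2, and its log2 difference turned to 0.11 when signals were floored at background. RSM7, which differed 3.13-fold without acid, stood at log2 0.26 ± 0.20 with acid (adjusted p = 0.32), and at 0.75 under median centring (adjusted p = 0.012).

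Of the 12 calls with acid, those of MRPL37, MRPL39, MRPL28 and RSM26 stayed whichever array was left out. The number of higher genes was 3 without NFRI 3145 0.6% AcOH replicate 2 and 5 without replicate 1 of that group, and 8 at most. The number of lower genes was 2 without NFRI 3145 0.6% AcOH replicate 1 and 4 without replicate 2, where MRPL13 was called (log2 -4.47, adjusted p = 0.029). MRPL3 and MRP1 lost their calls without NFRI 3145 0.6% AcOH replicate 2 (adjusted p = 0.068 for both) and RSM23 without replicate 1 of that group (0.080). MRPL19 lost its call without NBRC 0224 0.6% AcOH replicate 1 or NFRI 3145 0.6% AcOH replicate 2 (up to 0.15). IMG1 and MRPS12 lost theirs without NBRC 0224 0.6% AcOH replicate 1 or either NFRI 3145 0.6% AcOH array (up to 0.098 and 0.11), and RSM19 without NBRC 0224 0.6% AcOH replicate 2 or either of those arrays (up to 0.12). MRPL49 kept its call only without NFRI 3145 0.6% AcOH replicate 2 (up to 0.24 otherwise). It also lost its call under quantile normalization (0.097), median centring (0.12) and without the filter (0.053), and IMG1 (0.058) and MRPS12 (0.11) lost theirs without the variance trend.

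The strain differences at the 2 acid levels share no arrays and can be set side by side. Of the 36 genes 11 were called at both levels, each in the same direction, which is 64.7% of the 17 called without acid and 91.7% of the 12 called with acid. Over all tested genes these shares were 70.7% and 77.0%, and genes called at both levels in 1 direction made up 30.6% of the 36 and 35.5% of all tested genes. They were RSM19, MRPL37, MRPL39, MRPL28, MRPL19, MRPL3, IMG1 and MRPS12, all higher in NFRI 3145, and RSM26, MRP1 and RSM23, all lower. The sign agreed in 28 of the 36 genes (77.8%), against 79.7% of all tested genes, and the correlation of the log2 differences across genes was 0.75, against 0.80 for all tested genes. These are descriptions across genes, which are not independent replicates.

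**Figure D3:**
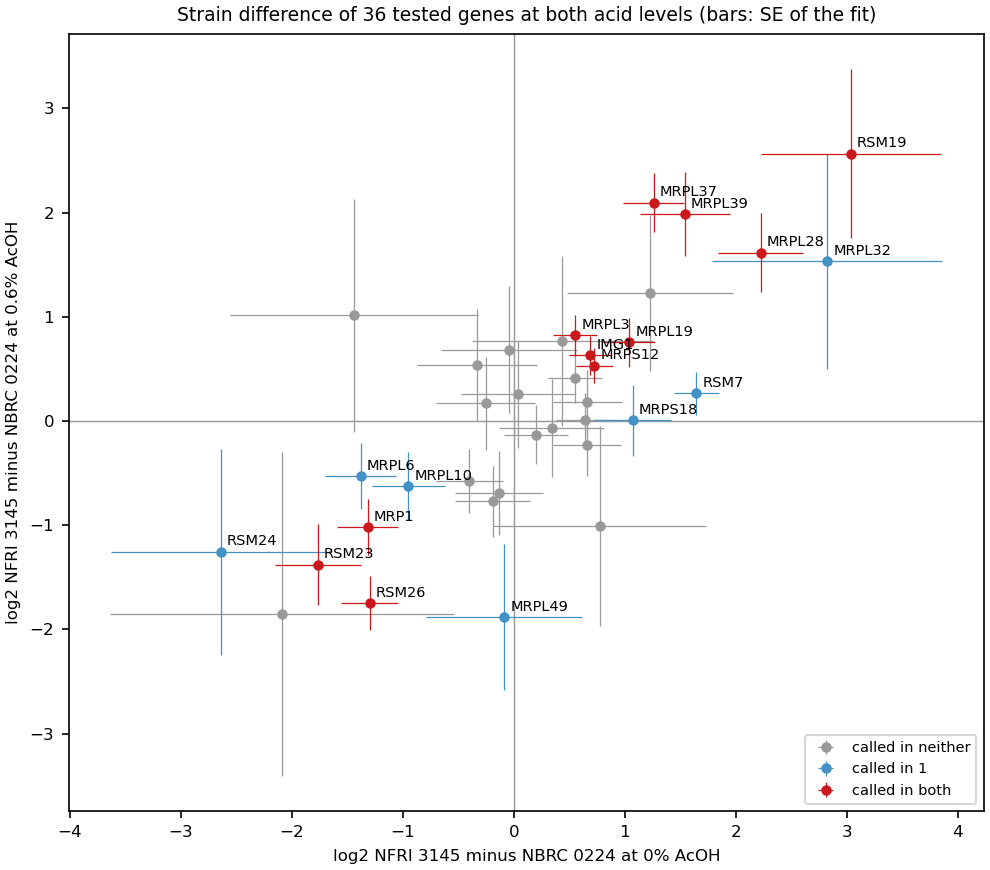
Strain difference of the 36 tested mitoribosomal genes at both acid levels. The x axis is the log2 difference NFRI 3145 minus NBRC 0224 at 0% AcOH and the y axis the same at 0.6% AcOH, bars are the SE of the fit, and colour shows how often a gene was called. The 11 genes called at both levels lie in the upper right and lower left corners, and RSM7 lies at 1.64 without acid and 0.26 with acid.

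The next comparison was that of 0.6% with 0% AcOH within NBRC 0224, the strain labelled sensitive. No mitoribosomal gene passed the threshold in either direction by limma, against 8.4% of all tested genes (3.61% higher and 4.8% lower). At an unadjusted p under 0.05 stood 6 of the 36 (16.7%), against 23.5% of all tested genes. The median log2 change was 0.05, against -0.11 for all tested genes, and 0.19 and 0.21 under quantile normalization and median centring. Among all tested genes the split between higher and lower was 140 to 186, and 181 to 152 and 198 to 128 under these scalings.

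The genes nearest to the threshold in NBRC 0224 were IMG1, MRPL8 and MRPS12. IMG1 read 1843 and 1689 without acid and 2206 and 3062 with acid (log2 0.56 ± 0.19, adjusted p = 0.10). MRPL8, the counterpart of bacterial L17, read 103 and 184 without acid and 219 and 281 with acid (0.85 ± 0.31, adjusted p = 0.13), and MRPS12 read 9645 and 13929 with acid (0.44 ± 0.17, adjusted p = 0.14). The arrays with acid stood above those without acid in these 3 genes. Without NBRC 0224 0.6% AcOH replicate 1, 3 genes were called higher, IMG1 (0.80, adjusted p = 0.0074), MRPS12 (0.70, adjusted p = 0.0044) and MRPL4 (0.76, adjusted p = 0.044).

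Apart from MRPL8, the largest changes in NBRC 0224 in either direction were those of genes at background. MRPL13 (log2 -1.44 ± 1.55) and MRPL38, the counterpart of bacterial L14 (-1.36 ± 0.54), had the lowest values with MRPL23, the counterpart of bacterial L13 (-1.23 ± 1.12). MRPL33, the counterpart of bacterial L30 (0.85 ± 0.82), and RSM19 (0.68 ± 0.81) stood at the other end with MRPL8. Adjusted p lay between 0.13 and 0.65 for these 6 genes, and the standard errors of 4 of them lay between 0.81 and 1.55. MRPL23 changed sign when signals were floored at background (0.30).

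In NFRI 3145, the strain labelled tolerant, 2 of the 36 genes fell with 0.6% AcOH and none rose. They are 5.56% of the 36, against 13.5% of all tested genes (3.82% higher and 9.67% lower). At an unadjusted p under 0.05 stood 9 of the 36 (25.0%), against 27.7% of all tested genes. The median log2 change of the 36 was -0.01, against -0.07 for all tested genes, but 0.22 under both quantile normalization and median centring, where the medians of all genes were 0.07 and 0.16. The direction of that median therefore depends on the scaling, and the split of all tested genes between higher and lower went from 148 to 375 to 198 to 280 and 335 to 285.

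RSM7 fell from 5291 and 5732 to 2299 and 1980, a 2.58-fold fall (log2 -1.37 ± 0.20, adjusted p = 0.0013). With acid its NFRI 3145 signals lay close to those of NBRC 0224, 1457 and 2131 without acid and 1733 and 1822 with acid. The call held whichever array was left out (adjusted p up to 0.022) and under every other setting tried. MRPL36 (YBR122C, chromosome II), the counterpart of bacterial L31, fell from 196 and 248 to 88.3 and 110 (log2 -1.16 ± 0.31, adjusted p = 0.029), while NBRC 0224 read 107 and 183 without acid and 114 and 117 with acid. The call of MRPL36 ended without any one of the 4 NFRI 3145 arrays (adjusted p up to 0.18), under median centring (0.052), without the filter (0.052) and without the variance trend (0.067).

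Several further genes stood near the threshold in NFRI 3145. RSM25, a mitochondria-specific protein of the small subunit, read 52.5 and 82.5 without acid and was below background on both arrays with acid, at least 1.58-fold lower with an adjusted p of 0.054. It was tested only through its arrays without acid, so its place among the 36 depended on where it was high. MRPL37 read 229 and 285 without acid and 395 and 560 with acid (log2 0.88 ± 0.28, adjusted p = 0.060). MRPS9, the counterpart of bacterial S9, read 368 and 220 without acid and 137 and 151 with acid (-0.98 ± 0.34, adjusted p = 0.076). The acid and control arrays did not overlap in any of these 3 genes, which with 2 arrays a group adds little to values short of the threshold. MRPL3 (0.56 ± 0.20, adjusted p = 0.086) and IMG1 (0.50 ± 0.19, adjusted p = 0.11) stood on the higher side. IMG1, MRPL3 and MRPL37 were called higher under median centring, in the fit of the 2 NFRI 3145 groups alone, and when either NBRC 0224 0.6% AcOH array was left out. RSM25 was called lower when either of those arrays (adjusted p = 0.045 and 0.047) or NFRI 3145 0.6% AcOH replicate 2 (0.047) was left out, and without the variance trend (0.046).

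The remaining large values in NFRI 3145 came from genes at background with wide errors. MRPL49 stood at log2 -1.31 ± 0.70 (adjusted p = 0.26), and MRPL23, MRPL33 and RSM24 at 1.23 ± 1.12, 1.18 ± 0.82 and 1.14 ± 0.99 (adjusted p = 0.54, 0.40 and 0.52). RSM24 turned to -0.42 and MRPL23 to -0.22 without NFRI 3145 0% AcOH replicate 1, and MRPL49 to 0.036 with signals floored at background.

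**Figure D4:**
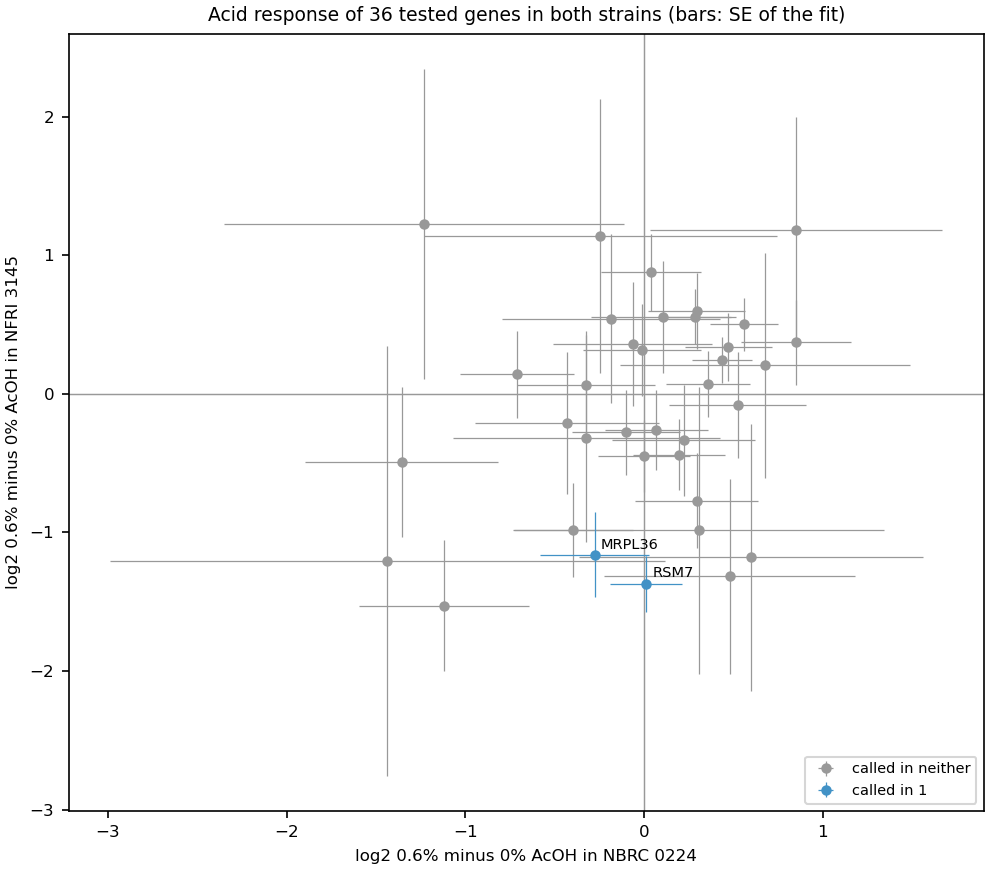
Response of the 36 tested mitoribosomal genes to 0.6% AcOH in both strains. The x axis is the log2 change in NBRC 0224, the y axis the log2 change in NFRI 3145, and bars are the SE of the fit. RSM7, at 0.01 and -1.37, and MRPL36, at -0.28 and -1.16, are the 2 genes called in NFRI 3145.

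The difference of the 2 responses was tested as an interaction, which asks for which genes the strains responded unequally. No mitoribosomal gene was called by limma, against 0.851% of all tested genes (0.206% higher and 0.644% lower), and 1 of the 36 had an unadjusted p under 0.05 (2.78%, against 17.3% of all tested genes). That gene was RSM7, whose response in NFRI 3145 was lower than in NBRC 0224 by a log2 difference of -1.38 ± 0.29 (adjusted p = 0.052). It passed the threshold among genes above background on all 8 arrays (adjusted p = 0.030), with signals floored at background (0.016) and without NBRC 0224 0.6% AcOH replicate 1 (0.022), and its adjusted p reached 0.20 when another array was left out. The next values belonged to genes at background, MRPL49 (-1.79 ± 0.99, adjusted p = 0.38), MRP49 (-1.78 ± 1.36, 0.52) and MRPL23 (2.46 ± 1.58, 0.44). RSM24 (1.39 ± 1.40, 0.63) and MRPL38 (0.87 ± 0.76, 0.57) followed on the higher side. The median over the 36 was -0.16, against -0.03 for all tested genes. The 2 responses, which share no arrays, had the same sign in 19 of the 36 genes (52.8%), against 60.1% of all tested genes, and their correlation across genes was 0.21, against 0.42 for all tested genes.

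The strain difference is given here by subunit and by protein family. In the large subunit the median log2 difference was 0.55 without acid and 0.48 with acid, and it stayed positive under quantile normalization (0.88 and 0.72) and median centring (0.96 and 0.97). In the small subunit it was -0.22 and -0.32, and turned to 0.12 and 0.06 under quantile normalization and to 0.19 and 0.17 under median centring. The medians of all tested genes moved as well, from -0.06 and -0.23 to 0.05 and -0.02 under quantile normalization and to 0.35 and 0.26 under median centring. The small subunit lay below all tested genes as deposited and under median centring, and above them under quantile normalization. Of the 25 tested genes with a bacterial counterpart 8 were higher and 2 lower in NFRI 3145 without acid (10 of 25, against 50.2% of all tested genes), and 5 and 1 with acid (24.0%, against 46.1%). Of the 11 tested mitochondria-specific genes 3 were higher and 4 lower without acid (63.6%), and 3 and 3 with acid (54.5%). The differences between the subunits and between the families were not tested.

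Mitoribosomal proteins with other names, which the symbol rule does not take, held some of the widest strain differences of the mitochondrial ribosome. Of 10 such genes 9 have a probe set in the data used here and 7 were tested, with 3 higher and 2 lower in NFRI 3145 at both acid levels (71.4%, against 50.2% and 46.1% of all tested genes). NAM9, the counterpart of bacterial S4, read 648 and 658 in NBRC 0224 and 2651 and 3029 in NFRI 3145 without acid (log2 2.12 ± 0.20, adjusted p = 7.5e-06), and 517 and 686 against 2138 and 2390 with acid. RTC6, the counterpart of bacterial L36, read 632 and 503 against 2479 and 2011 without acid (1.98 ± 0.20, adjusted p = 1.2e-05), and 595 and 585 against 3339 and 3075 with acid. The NFRI 3145 arrays of both genes stood far above all NBRC 0224 arrays. MRX14, the counterpart of bacterial L34, lay near background in NBRC 0224 and read 376 and 359 in NFRI 3145 without acid and 675 and 624 with acid, at least 9.73-fold and at least 13.7-fold higher. EHD3, a mitoribosomal protein that is also a 3-hydroxyisobutyryl-CoA hydrolase, was at least 2.59-fold and at least 2.49-fold lower, and PET123 at least 1.06-fold and at least 2.61-fold lower. Both exceeded background only on NBRC 0224 arrays, so they were tested only through the strain in which they were high. None of the 7 was called in either response to acid by limma, with 1 and 3 of them at an unadjusted p under 0.05 in NBRC 0224 and NFRI 3145. With acid in NFRI 3145, EHD3 was called higher under quantile normalization (adjusted p = 0.029), from signals below background, and RTC6 (0.033) and MRX14 (0.016) under median centring. These strain calls held whichever array was left out, except that of PET123 without acid (adjusted p = 0.046, and up to 0.23 without any NBRC 0224 array or either NFRI 3145 0% AcOH array). The gene of VAR1, the mitoribosomal protein encoded in mitochondrial DNA, has no probe set among those used here, and YML6 and FYV4 were not tested.

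Genes that act with the mitoribosome were often below background. Of 12 mitochondrial translation factors 3 were tested, and MEF1, an elongation factor G, was not among them. TUF1, the elongation factor Tu of mitochondria, rose with acid in both strains, from 8460 and 9324 to 12329 and 16347 in NBRC 0224 (log2 0.68 ± 0.15, adjusted p = 0.019) and from 7096 and 7623 to 12415 and 12462 in NFRI 3145 (0.76 ± 0.15, adjusted p = 0.0070). The arrays with acid stood above those without acid in both strains, near the top of the scale, and the calls ended without either NBRC 0224 0% AcOH array (adjusted p up to 0.18) and without replicate 1 of either NFRI 3145 group (up to 0.055). Of 13 mitochondrial aminoacyl-tRNA synthetases 11 were tested. MSW1, which charges the tRNA of tryptophan, fell with acid in NFRI 3145 from 77.0 and 97.3 to signals below background, at least 2.08-fold (adjusted p = 0.0074, and 0.075 without NFRI 3145 0% AcOH replicate 2). Between the strains ISM1 and SLM5 were higher and MSM1 lower in NFRI 3145 without acid, and MSK1 and SLM5 higher and MSE1 and MSW1 lower with acid. SLM5 with acid (log2 1.10 ± 0.22) was the only one of these 7 strain calls that held whichever array was left out. ISM1 exceeded background only on the NFRI 3145 arrays without acid, and MSM1 and MSE1 only on NBRC 0224 arrays, so these 3 were tested only through the group in which they were high.

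Of 6 assembly and RNA modification factors 3 were tested, with the rRNA methyltransferases MRM2 lower in NFRI 3145 without acid (at least 1.70-fold, adjusted p = 0.015) and MRM1 higher with acid (log2 1.02 ± 0.29, adjusted p = 0.013), calls that ended without 1 of several arrays of those groups (adjusted p up to 0.11 and 0.078). MRM2 exceeded background only on NBRC 0224 arrays and was tested only through them. Of 15 activators that each promote translation of single mitochondrial mRNAs 7 were tested, with none called by limma in a response to acid and 1 at an unadjusted p under 0.05 in each strain. Under median centring 1 of the 7 was called higher with acid in NFRI 3145, as were 335 of all 3879 tested genes. MSS51, an activator for cytochrome oxidase subunit 1, was lower in NFRI 3145 at both acid levels (log2 -2.21 ± 0.22 and -1.89 ± 0.22), and PET494, an activator for subunit 3, was higher (2.48 ± 0.40 without acid and at least 3.04-fold with acid). PET111 was lower without acid (at least 2.31-fold) and ATP22 with acid (at least 1.68-fold, a call that ended without replicate 2 of either group with acid, adjusted p up to 0.091). Of the 2 tested genes of mitochondrial transcription and DNA maintenance, 0 were called by limma in any comparison, and 0 had an unadjusted p under 0.05. Under median centring 1 of these 2 was called higher in NFRI 3145 without acid, as were 1347 of all 3879 tested genes. PUF3 was not called in any comparison and lay at 71.5 and 43.2 in NBRC 0224 and 39.6 and 54.6 in NFRI 3145 without acid. With acid it read 44.4 and 73.1 in NBRC 0224 and 29.7 and 24.4, both below background, in NFRI 3145. The transcription factor gene HAP4 was not tested. SFP1, a regulator of ribosomal protein genes, was lower in NFRI 3145 at both acid levels (log2 -2.41 ± 0.28 and -1.77 ± 0.28), and HAP1, a haem-responsive activator, fell with acid in NFRI 3145 (-1.05 ± 0.25, adjusted p = 0.021). The call of HAP1 ended under median centring (adjusted p = 0.054) and without either NFRI 3145 0% AcOH array or NFRI 3145 0.6% AcOH replicate 2 (up to 0.14).

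The cytosolic ribosome gave a different count. Of its 127 tested protein genes 86 were higher and 6 lower in NFRI 3145 without acid (72.4%, against 50.2% of all tested genes). With acid 81 were higher and 3 lower (66.1%, against 46.1%). Among all tested genes 21.1% were higher and 29.1% lower without acid, and 17.4% and 28.7% with acid. The median log2 differences of 0.75 and 0.69 stayed positive under quantile normalization (0.58 and 0.79) and median centring (1.17 and 1.18). The difference between the 2 ribosomes was not tested. In the responses to acid 5 of the 127 were higher and 3 lower in NBRC 0224 (6.30%, against 8.4% of all tested genes). In NFRI 3145 0 were higher and 2 lower (1.57%, against 13.5%), where 3 were higher and 3 lower at an unadjusted p under 0.05 by limma. Of the 35 tested nuclear genes of the respiratory chain and ATP synthase, 10 were higher and 10 lower in NFRI 3145 without acid (57.1%, against 50.2% of all tested genes), and 10 and 7 with acid (48.6%, against 46.1%). That split depends on the scaling, with 11 to 6 and 15 to 5 without acid and 10 to 7 and 14 to 4 with acid under quantile normalization and median centring. Higher with acid were 1 of the 35 in NBRC 0224 (4 under either scaling) and 5 in NFRI 3145 (4 and 9), with 0 lower by limma, where 4 and 3 were lower at an unadjusted p under 0.05. The 1 and 5 are 2.86% and 14.3% of the 35, against 3.61% and 3.82% of all tested genes called higher and 4.8% and 9.67% called lower. Under median centring the number of all tested genes called higher in NFRI 3145 also rose, from 148 to 335. With acid CYC1, the gene of cytochrome c isoform 1, rose in both strains (log2 0.97 ± 0.22 in NBRC 0224 and 1.96 ± 0.22 in NFRI 3145), and ATP5, ATP15, ATP18 and QCR10 rose in NFRI 3145 (log2 0.69 to 1.34). Of these calls that of CYC1 in NFRI 3145 held whichever array was left out. In NBRC 0224 it ended without either array at 0% AcOH or either NFRI 3145 array with acid (adjusted p up to 0.18). ATP15, ATP18 and QCR10 lost theirs without any NFRI 3145 array (up to 0.27), and ATP5 without NFRI 3145 0% AcOH replicate 2 or 0.6% AcOH replicate 1 (up to 0.13).

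**Figure D5:**
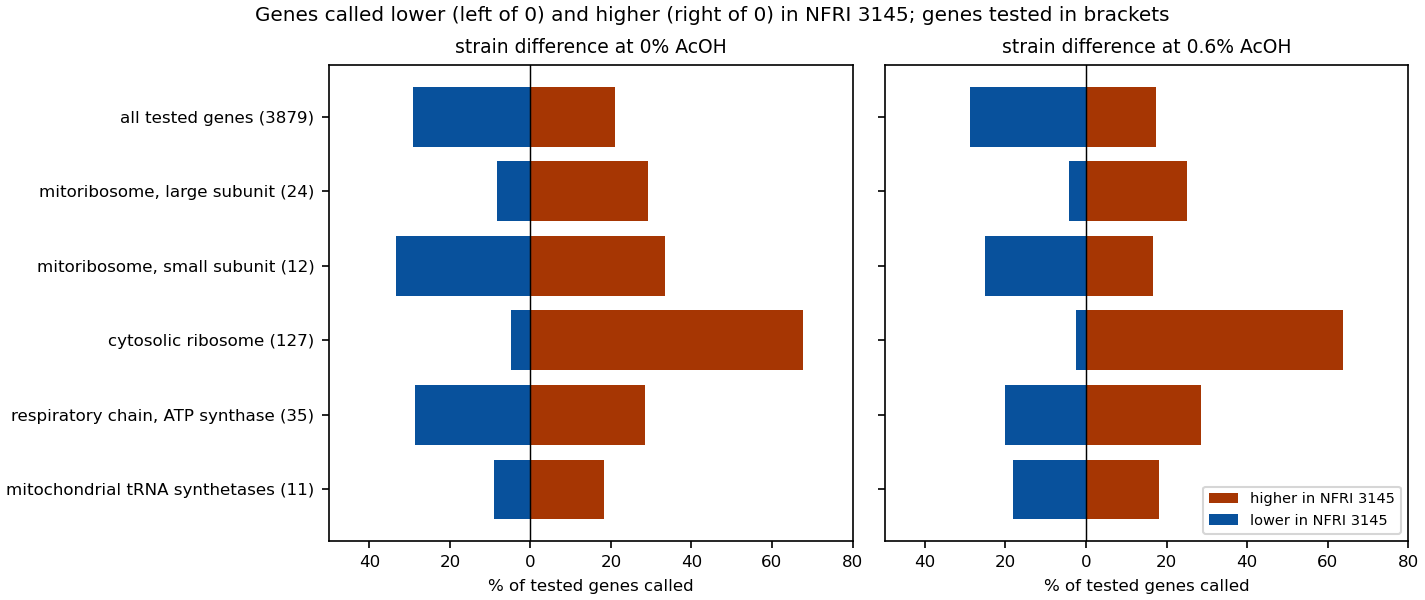
Share of the tested genes of each list that was called lower (left of 0) or higher (right of 0) in NFRI 3145, in per cent, at 0% AcOH and at 0.6% AcOH. Of the 24 large-subunit genes 7 were higher and 2 lower without acid, of the 12 small-subunit genes 4 and 4, and of the 127 cytosolic ribosomal protein genes 86 and 6. Of all tested genes 21.1% were higher and 29.1% lower without acid.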

How the data were processed

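Linear probe set signals (intensity) were used as deposited. The authors made them with the Affymetrix software GCOS, per the submitters' processing notes, and per the labels' protocols polyA RNA from a hot phenol extraction was labelled with biotin. The deposited arrays had trimmed means of 500.7 to 500.8 over all 10928 probe sets (2% off each end). S. cerevisiae probe sets (5498, of 5449 genes) were recognised through the R64 gene table, with the brightest probe set per gene. A model with 1 mean for each of the 4 groups was applied to the log2 of the deposited signals (limma 3.58.1, R 4.3.3, empirical Bayes with a variance trend), and p-values were adjusted (Benjamini-Hochberg) over the 3879 genes above background on at least 2 arrays. A gene is called at an adjusted p under 0.05. The share of all tested genes whose groups do not overlap is not given, so a lack of overlap is no support beyond the call. Nor is it support where a gene was not called. Where arrays of the lower group lay below background they were raised to it, and the fold is written as at least that fold. A signal above 10000 counts as near the top of the scale. Replicate arrays correlated at 0.968 to 0.981 (log2), and 5.47% to 12.8% of tested genes were over 2-fold apart between them.

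The genes, the lists and the tests were chosen with earlier results of these data known. Named are the called genes, the 3 largest and 3 smallest changes per comparison, the 2 brightest and 2 dimmest genes of each subunit, the untested genes, and the called genes of the lists, except that those of the cytosolic ribosome and, between strains, the respiratory chain are given as counts. The fit was tested on simulated data. Alternatives were quantile normalization, median centring, no filter, a filter on all 8 arrays, a floor at background, no variance trend, only the groups compared, the dimmest probe set, a replicate block, and each array left out. No sequences are shown. Figures used matplotlib 3.10.9 (Python 3.11.15).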

Additional observations from a re-analysis of the deposited data

How the results depend on the processing

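Of 252 recomputed counts and medians 219 stayed close to their values, and of the single-gene values 716 kept their direction and side of the threshold, 77 no longer passed it, 10 newly passed it and 13 changed sign. Among the counts, without the filter 1 gene was higher and 1 lower with acid in NBRC 0224 and NFRI 3145, and the median in NFRI 3145 was -0.38. Under median centring 3 genes were higher and 1 lower with acid in NFRI 3145, with a median of 0.22 (0.22 under quantile normalization), the median strain difference without acid was 0.80, and with acid 1 gene was lower, with a median of 0.67 (1 and 0.45 under quantile normalization). On genes above background on all 8 arrays 1 gene was higher with acid in NFRI 3145, 1 was lower in the difference of the responses, and 5 were higher and 2 lower between strains with acid. The NFRI 3145 groups alone gave 3 higher genes. Signals floored at background gave 1 lower gene in the difference of the responses. Over all tested genes 326 were called with acid in NBRC 0224, but 104 without the variance trend and 142 from the 2 groups alone, and 33 in the difference of the responses, but 5 without the trend, 148 with the floor, 51 under quantile normalization and 50 with the replicate block. With an array left out these counts ran from 75 to 747 and from 4 to 336, and in NFRI 3145 from 183 to 767, against 523.

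Replicate numbers did not pair the samples (deviations of same-numbered arrays correlated at -0.054 to 0.054). With replicate as a block RSM7 passed in the difference of the responses (1 gene lower, adjusted p = 0.047), MRPL8 joined the higher genes without acid (0.66 ± 0.25, adjusted p = 0.045) and MRPL49 left the lower genes with acid (adjusted p = 0.054). With each array left out, higher and lower counts ranged over 0 to 3 and 0 to 0 with acid in NBRC 0224 (median -0.11 to 0.14), 0 to 3 and 1 to 3 in NFRI 3145 (-0.13 to 0.23), 0 to 0 and 0 to 1 in their difference (-0.30 to -0.0013), 6 to 13 and 4 to 6 between strains without acid (0.17 to 0.62), and 3 to 8 and 2 to 4 with acid (-0.041 to 0.36). A group with 1 array left was assumed to vary like the others.

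Log2 values that changed sign belonged to genes at background. With the floor these were MRPL13 (0.16) and MRPL49 (0.11) between strains with acid, RSM24 without acid (0.034), MRPL23 in NBRC 0224 (0.30) and in the difference (-0.26), and MRPL49 in NFRI 3145 (0.036). With each array left out, the response of NBRC 0224 ranged from -2.90 to 0.44 for MRPL23, -0.10 to 1.80 for MRPL33 and -0.40 to 1.75 for RSM19, by which array with acid was left out. That of NFRI 3145 ranged from -0.22 to 2.67 for MRPL23 and -0.42 to 2.71 for RSM24 (-0.18 to 2.95 in the difference), by which array without acid was left out, and the strain difference of MRPL13 with acid from -4.47 to 0.77, by which NFRI 3145 array with acid was left out. The causes were not tested. Signal over background limits what can be said of 32 of the 68 genes.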

Other observations

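Genes encoded next to the mitoribosomal genes, by the R64 gene table, were looked up after the calls were known, and their values are given without a test of the pairs. RSM7 lies between YJR112W-A and YJR115W. All 3 genes were higher in NFRI 3145 without acid, YJR112W-A at log2 2.01 (adjusted p = 1.8e-05) and YJR115W at 2.31 (adjusted p = 1.8e-05) beside 1.64 for RSM7. With acid in NFRI 3145 they parted, since YJR115W fell like RSM7 (-1.26, adjusted p = 0.0077) while YJR112W-A rose (0.79, adjusted p = 0.033). At 0.6% AcOH YJR112W-A and YJR115W were still higher in NFRI 3145 (2.33 and 1.61, limma adjusted p = 7.9e-06 and 0.00031). RSM7 was not called there (0.26). SDH8, an assembly factor of succinate dehydrogenase next to MRPL37, was higher in NFRI 3145 at both acid levels (1.54 and 2.02, adjusted p = 0.00013 and 2.1e-05), as was MRPL37 (1.26 and 2.10). SVF1, next to MRP1, was lower at both levels (-2.59 and -3.20, adjusted p = 0.0083 and 0.0027), as was MRP1.

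Other neighbours went apart. UBP10, next to MRPL19, was lower in NFRI 3145 (-1.51, adjusted p = 0.00079) where MRPL19 was higher. MRPL1 and MRX14, both mitoribosomal and adjacent, stood at -0.044 and 3.40 without acid. Over the 8 genes whose strain difference without acid held with any array left out, 7 neighbours were tested and 5 called, where 50.2% of all tested genes were called. Of these, 4 went in the same direction and 1 in the opposite one, with YJR112W-A and YJR115W both beside RSM7. Over the 4 such genes with acid, 3 neighbours were tested and 2 called, against 46.1% of all tested genes. Here 1 went in the same direction and 1 in the opposite one. Neighbours of the other called genes went both ways without acid. SPT5 and ERG6 were lower (-1.94 and -1.38) beside MRPL39, which was higher, while BXI1 was higher (0.99) beside MRPS18, also higher.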
